A study of Mus musculus with 10 samples.

Results

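The genes described here encode subunits and assembly factors of the mitochondrial respiratory chain, measured in mouse liver. They were chosen by symbol: every gene with a probe set of its own name starting with Nduf, Sdh followed by a, b, c or d, Uqcr, Cox followed by a digit, or Atp5 in the array's annotation. This gave 78 of the 8251 genes measured, each read from the brightest of its probe sets on average. Of these, 31 belong to complex I, 6 to complex II, 7 to complex III, 20 to complex IV and 14 to the ATP synthase. They are 64 subunits, 4 core subunits of complex I, 9 assembly factors and Cox7a2l, a factor that joins complexes III and IV. No filter on low values was applied, and 67 of the 78 had a mean log2 signal of at least 6.

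Complexes I and II pass electrons from NADH and from succinate to ubiquinone, complex III passes them on to cytochrome c, and complex IV reduces oxygen. Complexes I, III and IV pump protons out of the mitochondrial matrix, and the ATP synthase makes ATP as protons return. Nuclear genes such as those measured here encode most subunits, and a small set comes from mitochondrial DNA. In hepatocytes the chain oxidises the reducing equivalents of fatty acid, amino acid and pyruvate breakdown. SREBP-1a and SREBP-2 are transcription factors of lipid synthesis, released from the endoplasmic reticulum membrane with the help of the escort protein SCAP.

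The study combined transgenic and knockout mice in a search for SREBP target genes, and all mice were male. The transgenic lines TgSREBP-1a and TgSREBP-2 expressed active nuclear forms of the human factors, SREBP-1a in the former and SREBP-2 in the latter. Aged 12 to 16 weeks, these mice and wild type littermates spent 2 weeks on a high protein/low carbohydrate diet, which serves to raise the transgenes. The Scap-/- mice carried MX1-Cre, a recombinase under an interferon-induced promoter that 4 injections of polyinosinic-polycytidylic acid switched on. Knockout and wild type mice of this set were aged 10 to 12 weeks, ate Teklad chow, were all injected, and were killed 14 days after the final injection. In every group the liver RNA of 5 mice was combined to 1 pool of 20 μg, and each pool was hybridised to 2 arrays. Every p-value below therefore measures the spread between 2 hybridisations of a pool and carries no error between mice. In whole liver RNA, fewer cells of a type and less RNA per cell cannot be told apart. Values are log2 signals, differences are log2 differences with the moderated standard error of limma (n = 2 arrays per pool), and adjusted p-values are Benjamini-Hochberg values over all 8251 genes of that fit. A gene counts as called at 1.5-fold with an adjusted p under 0.05 and a difference of at least 1.5-fold. It counts as passing the test with the adjusted p alone. Counts at an unadjusted p under 0.05 are given without the share of all genes, which was not taken. They are no result about a list.

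The arrays had near-equal medians over genes, of 6.71 to 6.77. Their standard deviations ran from 1.66 on the second high-protein wild type array to 1.74 on the first TgSREBP-2 array. The labelled tissue was borne out by 8 of 8 measured hepatocyte markers, whose mean log2 signal was 11.17 to 11.30 per array. Markers of other tissues differed between pools. The mean of 6 exocrine pancreas markers was 9.65 and 9.68 on the chow wild type arrays, 7.46 and 7.39 in Scap knockout, 10.51 and 10.39 in high-protein wild type, 7.16 and 7.11 in TgSREBP-1a, and highest in TgSREBP-2 at 11.19 and 11.03. The mean of 14 striated muscle markers was 5.76 to 5.88 in chow wild type and TgSREBP-1a and 6.25 to 6.34 in the other 3 pools. That of 10 macrophage markers was lowest in high-protein wild type, at 7.71 and 7.74, against 8.07 to 8.48 elsewhere. On a log2 scale no marker is at 0, and detection calls were not used here.

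Promoters of 4 genes that carry the results below are shown, since these genes differed between pools and lie in the RefSeq promoter table. Promoters were found for 63 of the 78 genes. Each sequence is the 250 bases before the start of the gene, on the gene's strand, from GRCm38.p6. The capitals mark matches, on either strand, to letters linked to factors of mitochondrial genes: GCGCNNGCG for NRF1 and CCGGAAG for ETS factors such as GABP. Ndufa6 is a complex I subunit at chr15:82354292-82354541 on the minus strand. Cox6a1 is a complex IV subunit at chr5:115348959-115349208 on the minus strand. Both were higher in TgSREBP-1a than in high-protein wild type. Ndufaf1 is a complex I assembly factor at chr2:119662835-119663084 on the minus strand. Sdhd is a membrane anchor of complex II at chr9:50603850-50604099 on the minus strand. Ndufaf1 and Sdhd were lower in high-protein wild type than in chow wild type.
Ndufa6: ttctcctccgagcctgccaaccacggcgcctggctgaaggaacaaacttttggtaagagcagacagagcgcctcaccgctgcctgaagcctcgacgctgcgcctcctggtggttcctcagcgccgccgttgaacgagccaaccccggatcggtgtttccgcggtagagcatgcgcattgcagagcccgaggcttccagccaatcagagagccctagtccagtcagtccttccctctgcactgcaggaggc
Cox6a1: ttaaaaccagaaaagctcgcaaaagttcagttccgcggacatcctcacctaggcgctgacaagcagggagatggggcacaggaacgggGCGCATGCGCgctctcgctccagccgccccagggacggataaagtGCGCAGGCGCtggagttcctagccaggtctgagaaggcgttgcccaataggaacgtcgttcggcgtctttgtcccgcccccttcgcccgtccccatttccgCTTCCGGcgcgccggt
Ndufaf1: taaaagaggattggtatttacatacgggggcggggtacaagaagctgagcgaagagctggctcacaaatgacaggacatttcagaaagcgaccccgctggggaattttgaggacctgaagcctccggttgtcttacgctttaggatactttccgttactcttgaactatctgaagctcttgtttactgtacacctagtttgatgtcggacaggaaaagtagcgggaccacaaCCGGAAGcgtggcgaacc
Sdhd: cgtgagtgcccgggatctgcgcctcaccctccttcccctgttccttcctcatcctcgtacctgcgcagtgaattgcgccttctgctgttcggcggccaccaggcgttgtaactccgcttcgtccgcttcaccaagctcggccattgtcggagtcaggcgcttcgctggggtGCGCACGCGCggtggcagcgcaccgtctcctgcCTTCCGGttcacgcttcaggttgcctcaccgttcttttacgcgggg

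In Ndufa6 neither set of letters occurred. Cox6a1 held 4 NRF1 matches, which start at -162, -161, -117 and -116 from the gene's start, and an ETS match at -16. The first pair overlap as 1 stretch that matches on both strands, and so do the last pair. Ndufaf1 had an ETS match at -18, and Sdhd had NRF1 matches at -79 and -78, again 1 stretch that matches on both strands, and an ETS match at -46. Over the family, 16 of 63 promoters held the NRF1 letters (25.4%), against 19.8% of the 6572 array genes with a promoter and 11.1% of all 27025 genes in the table. The ETS letters stood in 15 of 63 (23.8%), against 13.6% of array genes. The YY1 letters AAGATGGC stood in 2 (3.17%, against 2.1%), those of estrogen-related receptors, AAGGTCA, in 2 (3.17%, against 3.85%), and the E-box CACGTG in 5 (7.94%, against 9.94%). The sterol regulatory element letters TCACNCCAC were in none of the 63, and in 95 of the 6572 array genes (1.45%). Both strands were searched for each motif. NRF1 and ETS matches did not overlap in the promoters shown. A match describes these letters in this window and nothing more.

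TgSREBP-1a was compared with high-protein wild type to see which chain genes differ when nuclear SREBP-1a is raised. Most did not pass the test: 5 genes rose and 2 fell. Cox17, the chaperone that carries copper to complex IV, rose 1.69-fold, and Ndufa6, a complex I subunit, rose 1.52-fold. These were the 2 genes of 78 called at 1.5-fold, while 7.37% of all genes were called in either direction. By the adjusted p alone, 9.82% of all genes were higher and 6.74% lower, so the family's counts lay below both shares. The median difference of the 78 genes was 0.05, beside -0.03 over all genes, and 73 of the 78 differed by less than 1.3-fold.

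Cox17 had log2 signals of 8.28 and 8.07 in TgSREBP-1a, 7.49 and 7.34 in high-protein wild type, 7.99 and 7.78 in TgSREBP-2, 7.89 and 8.03 in chow wild type, and 7.79 and 7.89 in Scap knockout. High-protein wild type was the lowest of the 5 pools, and both TgSREBP-1a arrays lay above every other array. The difference from high-protein wild type was 0.76 ± 0.11 (limma adjusted p = 0.000752). Ndufa6 read 8.16 and 8.06 in TgSREBP-1a, 7.58 and 7.45 in high-protein wild type, 7.87 and 7.56 in TgSREBP-2, 7.99 and 8.04 in chow wild type, and 7.76 and 7.98 in Scap knockout. Here too the high-protein wild type pool was lowest, although its upper array lay above the lower TgSREBP-2 array. Its difference was 0.60 ± 0.12 (limma adjusted p = 0.00492).

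The other 3 genes that rose were Cox6a1, Ndufb8 and Ndufa7. Cox6a1, the form of subunit VIa used in liver, whose promoter is shown above, read 11.31 and 11.32 in TgSREBP-1a and 10.92 and 10.88 in high-protein wild type. The groups did not overlap, and the difference was 0.41 ± 0.08 (limma adjusted p = 0.00378). Chow wild type, at 11.33 and 11.34, was level with TgSREBP-1a. TgSREBP-2 (11.23 and 11.12) and Scap knockout (11.17 and 11.22) lay between TgSREBP-1a and high-protein wild type. Ndufb8, a subunit of the membrane arm of complex I, read 9.95 and 10.01 against 9.52 and 9.57, a difference of 0.44 ± 0.07 (limma adjusted p = 0.00196). The other 3 pools lay between 9.57 and 9.69, so TgSREBP-1a stood above all of them. Ndufa7, another complex I subunit, read 10.11 and 10.15 against 9.77 and 9.77, and chow wild type and Scap knockout, at 10.08 to 10.14, were level with the transgenic pool. All 5 of these genes passed the test without each array in turn.

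The 2 genes that fell were Ndufa1 and Cox6a2. Ndufa1 read 6.58 and 6.41 in TgSREBP-1a against 7.12 and 6.72 in high-protein wild type, a fall of 0.43 on the log2 scale (limma adjusted p = 0.0358). Its duplicates were far apart, and the call was lost without the first high-protein wild type array (log2 difference -0.23) or without the second TgSREBP-1a array. The second, dimmer probe set of Ndufa1 read 5.77 and 6.23 against 6.21 and 6.13, so its pools overlapped. With the mean of all probe sets Ndufa1 did not pass. Cox6a2, the form of subunit VIa of heart and skeletal muscle, read 6.74 and 6.69 against 7.01 and 7.06, a difference of -0.32 ± 0.08 (limma adjusted p = 0.016). This call was lost without the second high-protein wild type array (limma adjusted p = 0.0686) or without the second TgSREBP-1a array. The 14 striated muscle markers were also lower in TgSREBP-1a in 4 cases and higher in none, and the 6 pancreas markers were all lower. The part of either in the Cox6a2 difference was not tested.

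By complex, the medians against high-protein wild type were 0.10 for complex I, 0.12 for complex II, 0.04 for complex III, 0.04 for complex IV and -0.02 for the ATP synthase. In complexes II and III and the ATP synthase no gene passed limma's test, and 1, 2 and 4 genes had an unadjusted p under 0.05. There the widest differences were 0.29 for Sdhd, -0.23 for Uqcrc1, a core protein of complex III, and 0.34 for Atp5mpl. Of the 78 genes, 20 had an unadjusted p under 0.05, 15 of them higher. With the replicate number as a block, 20 genes passed the test, 14 higher and 6 lower, beside 28.4% of all genes. Cox17 and Ndufa6 were called at 1.5-fold in the blocked fit too. Ndufa6 fell short of 1.5-fold after quantile normalization again (0.57), without the first TgSREBP-1a array (0.55) and without the second high-protein wild type array (0.54), where Ndufa1 was called in its place.

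**Figure D1:**
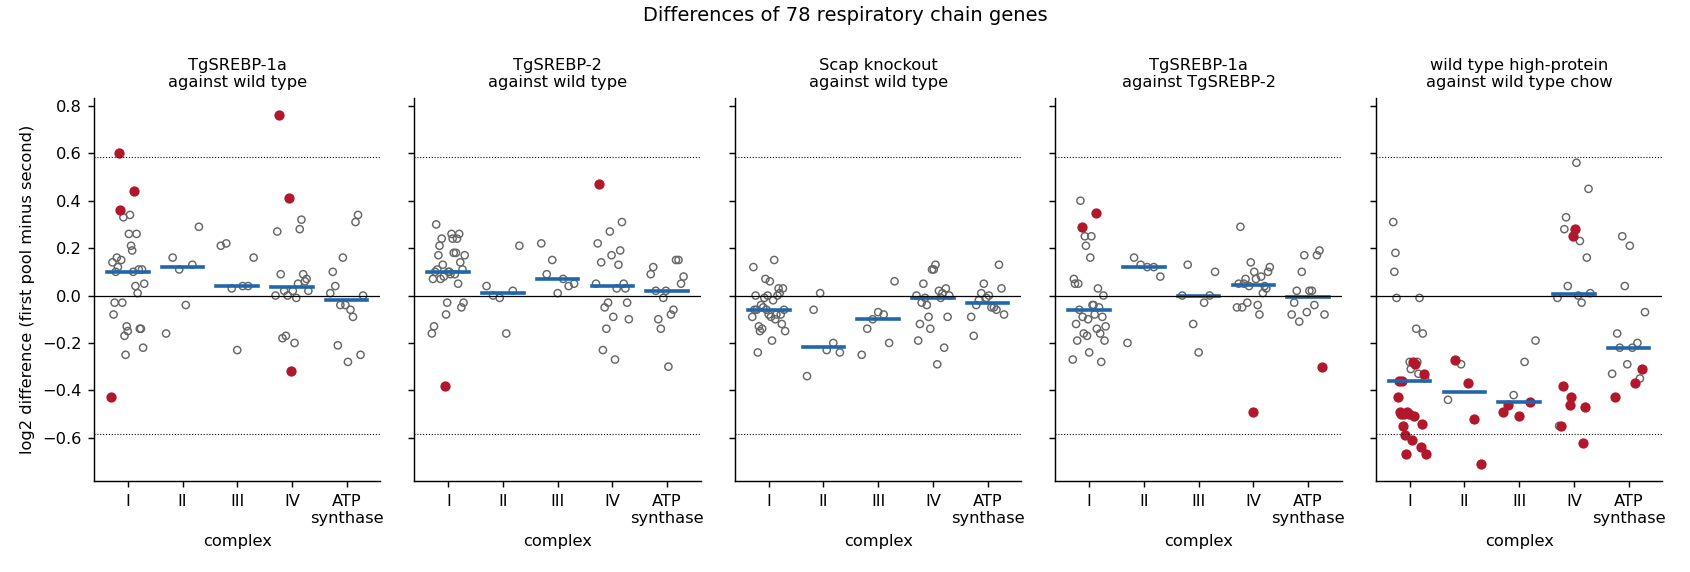
Each point is 1 of the 78 genes, placed by complex, with its log2 difference (first pool minus second) on the vertical axis. Filled red points passed the limma test at an adjusted p under 0.05, blue bars are medians of a complex, and dotted lines mark 1.5-fold. Most points lie near 0 in the first 4 panels, while 62 of 78 lie below 0 between the wild type pools.

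Other mitochondrial genes were read in the same comparison from lists chosen with earlier results of these data known. Of 18 measured genes of the tricarboxylic acid cycle and pyruvate dehydrogenase, 5 rose and 2 fell. Pdk1, a kinase that inactivates pyruvate dehydrogenase, rose by 1.89 ± 0.17 (limma adjusted p = 2.61e-05), and Cs, citrate synthase, rose by 1.22 ± 0.11 (limma adjusted p = 3.21e-05). Mdh2, malate dehydrogenase, rose by 0.62, and Fh1, fumarase, fell by 0.61. Of 61 mitochondrial ribosomal proteins, 12 rose and 1 fell, with a list median of 0.06. Of 10 regulators of mitochondrial biogenesis, none rose and 2 fell: Pprc1, a coactivator, by 0.42, and Esrra, a nuclear receptor of mitochondrial genes, by 0.35. Of 7 genes for assembly and translation of the chain, Timm8b rose by 0.63 and Acad9, a complex I assembly factor, by 0.53. Of 8 genes for mitochondrial antioxidants and uncoupling, Prdx3 rose by 1.04 and Gpx4 by 0.82, none fell, and the median was -0.05.

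TgSREBP-2 was compared with the same wild type pool, so both transgenic comparisons share these 2 control arrays. No chain gene was called at 1.5-fold, beside 2.57% of all genes. By the adjusted p alone 1 gene rose and 1 fell, beside 5.05% of all genes in either direction. Cox17 rose by 0.47 ± 0.11 (limma adjusted p = 0.0357), from the array values given above, with both transgenic arrays above both controls. Ndufaf1, which helps to build complex I, read 7.10 and 7.06 in TgSREBP-2 and 7.48 and 7.43 in high-protein wild type, a difference of -0.38 ± 0.09 (limma adjusted p = 0.0466). TgSREBP-2 was the lowest pool for this gene, with TgSREBP-1a at 7.37 and 7.19, and chow wild type (8.11 and 8.14) and Scap knockout (8.09 and 8.30) well above all 3 high-protein pools.

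Neither call in TgSREBP-2 held without each array in turn. That of Ndufaf1 was lost without any 1 of the 4 arrays, and that of Cox17 without 3 of the 4, the second TgSREBP-2 array being the exception. With the mean of all probe sets Cox17 passed and Ndufaf1 did not. With the replicate number as a block, 7 genes passed, 5 higher and 2 lower, beside 13.3% of all genes. The median of the 78 genes was 0.07, beside -0.02 over all genes, and turned to -0.02 when the arrays were quantile normalized again. The range ran from -0.38 to 0.47, 77 of 78 genes differed by less than 1.3-fold, and 9 had an unadjusted p under 0.05. Complex medians were 0.10 for I, 0.01 for II, 0.07 for III, 0.04 for IV and 0.02 for the ATP synthase, where Atp5j2 had the widest difference at -0.30 (limma adjusted p = 0.149). Among the other lists, Pdha1, a pyruvate dehydrogenase subunit, rose by 0.48 as the only tricarboxylic acid cycle gene of 18, and Lrpprc, which stabilises mitochondrial messenger RNA, rose by 0.52. None of 61 mitochondrial ribosomal proteins passed limma's test, and 13 had an unadjusted p under 0.05. None of 10 biogenesis regulators passed by either measure. Of 8 genes for mitochondrial antioxidants and uncoupling, Gpx4 alone passed, and rose by 1.03.

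Between the transgenic pools, 4 genes passed the test and none was called at 1.5-fold. Over all genes 11.0% passed and 5.19% were called at 1.5-fold. Cox6a2 differed most, with 6.74 and 6.69 in TgSREBP-1a and 7.19 and 7.21 in TgSREBP-2, a difference of -0.49 ± 0.08 (limma adjusted p = 0.00177). It was the one call that held without each array in turn. High-protein wild type lay between the transgenic pools at 7.01 and 7.06, Scap knockout at 6.89 and 6.88, and chow wild type at 6.84 and 6.72. Of 14 striated muscle markers 5 were lower in TgSREBP-1a and none higher, with means of 5.77 and 5.88 against 6.30 and 6.29, and their part in this difference was not tested.

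Ndufb8 and Ndufa7 were higher in TgSREBP-1a than in TgSREBP-2. Ndufb8 read 9.95 and 10.01 against 9.63 and 9.62, a difference of 0.35 ± 0.07 (limma adjusted p = 0.00959), and Ndufa7 read 10.11 and 10.15 against 9.81 and 9.87, a difference of 0.29 ± 0.07 (limma adjusted p = 0.0251). Atp5o, a stalk subunit of the ATP synthase, was lower, with 9.40 and 9.28 against 9.68 and 9.60, a difference of -0.30 ± 0.08 (limma adjusted p = 0.0471). The values of Ndufa6 (0.40, limma adjusted p = 0.0554) and Cox17 (0.29, limma adjusted p = 0.137) did not pass, so a difference between the lines in these genes was not shown. The blocked fit passed 9 genes, Ndufa6 and Cox17 among them, beside 19.1% of all genes.

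**Figure D2:**
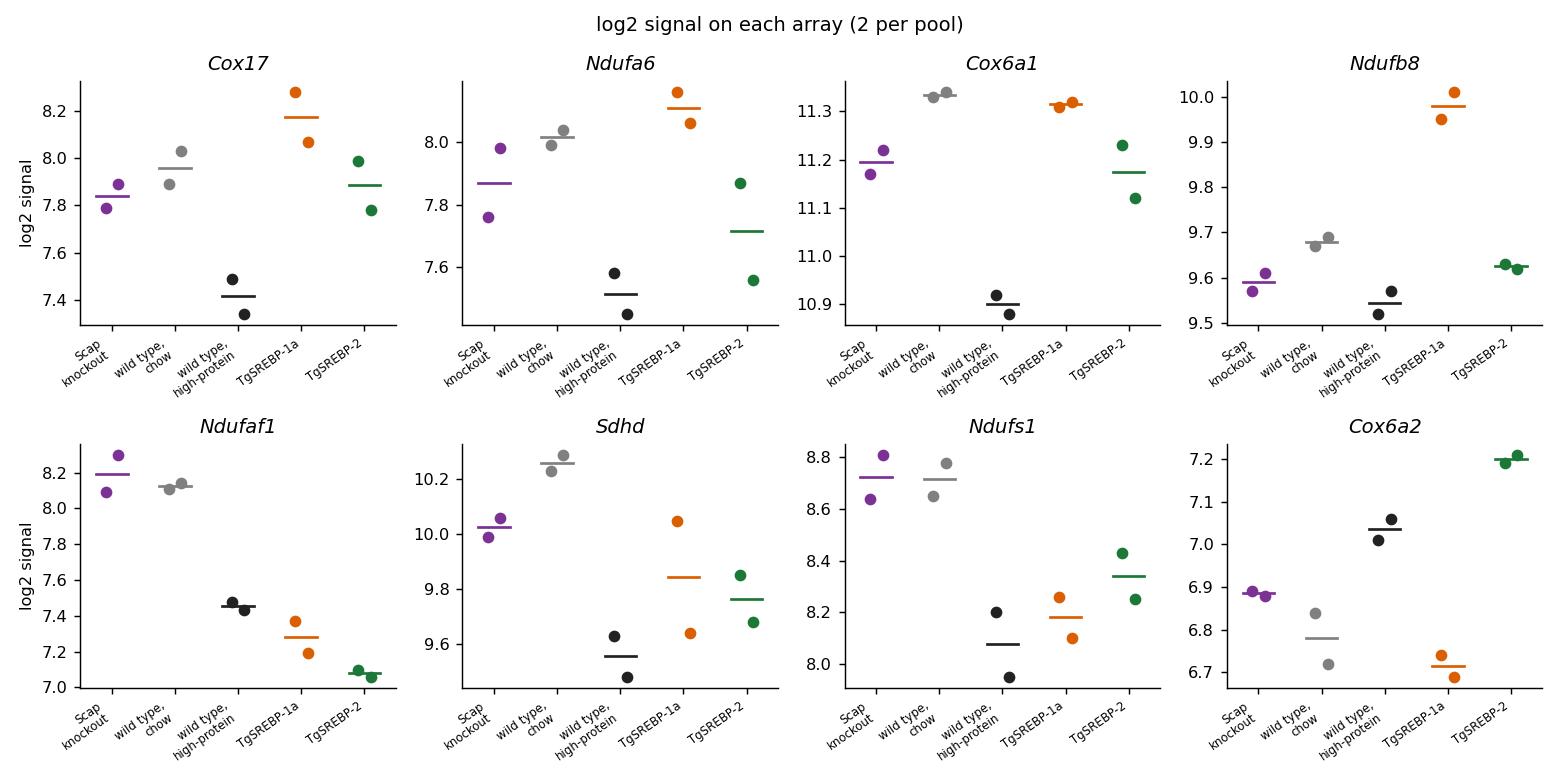
The log2 signal of 8 genes is shown on each of the 10 arrays, with 1 point per array, a line at the mean of each pool, and a vertical axis that does not start at 0. Cox17, Ndufa6, Cox6a1, Ndufb8, Sdhd and Ndufs1 are lowest in high-protein wild type, Ndufaf1 is lowest in TgSREBP-2, and Cox6a2 spans 6.69 to 7.21 with TgSREBP-2 highest.

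Loss of SCAP, which both SREBPs need for activation, was read against chow wild type. The labels do not say whether these wild type mice carried MX1-Cre, so loss of Scap and presence of the recombinase may not be separate here. None of the 78 genes passed limma's test, by either rule, beside 2.84% of all genes by adjusted p and 1.66% at 1.5-fold. The lowest adjusted p was 0.331, and 4 genes had an unadjusted p under 0.05, all lower in the knockout. They were Sdhb (-0.23), Uqcr10 (-0.25), Cox7b (-0.22) and Ndufa3 (-0.24). The share of all genes at this unadjusted cutoff was not taken, so these 4 are listed without a reading. The median was -0.06, beside 0.00 over all genes, 57 of 78 genes lay below 0, and all 78 were within 1.3-fold. After quantile normalization again the median was -0.02.

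The 6 genes of complex II had the lowest median of the complexes, -0.22, and its 4 subunits alone had a median of -0.23. Sdha, the flavoprotein that binds succinate, read 7.15 and 7.42 in the knockout and 7.53 and 7.72 in chow wild type, a difference of -0.34 ± 0.16 (limma adjusted p = 0.573). Sdhb, the iron-sulphur subunit, read 9.80 and 9.83 against 10.00 and 10.08 (limma adjusted p = 0.331). Sdhd read 9.99 and 10.06 against 10.23 and 10.29, a difference of -0.24 ± 0.13, and Sdhc, the other anchor, 9.84 and 10.12 against 10.12 and 10.24. Both knockout arrays of Sdha, Sdhb and Sdhd lay below both controls, and none of these genes passed the test. The remaining complex medians were -0.06 for I, -0.10 for III, -0.01 for IV and -0.03 for the ATP synthase, with the widest values at -0.29 for Cox6c and -0.17 for Atp5c1. Another Cox6c probe set gave 0.00. In the same comparison Idh2, a mitochondrial isocitrate dehydrogenase, was the 1 of 18 tricarboxylic acid cycle genes to rise, by 0.57 ± 0.08 (limma adjusted p = 0.00174), and no mitochondrial ribosomal protein of 61 passed limma's test, with 4 at an unadjusted p under 0.05.

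The control pools were compared next. High-protein wild type was lower than chow wild type in 36 of 78 genes and higher in 2, while 14.4% of all genes were lower and 8.22% higher. At 1.5-fold 7 genes fell and none rose, beside 4.34% and 1.28% of all genes. Both high-protein arrays lay below both chow arrays for 56 of 78 genes, and above them for 12, beside 33.8% and 32.1% of all genes. The median was -0.32, beside 0.01 over all genes. These pools are the controls of different mouse lines, and they also differ in diet, age, injections and the set of arrays they belong to. None of these can be told apart.

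The 7 genes were Sdhd, Ndufv3, Ndufaf1, Ndufs1, Cox7a2l, Ndufb3 and Ndufab1. Sdhd, whose promoter holds NRF1 and ETS letters, read 9.63 and 9.48 in high-protein and 10.23 and 10.29 in chow wild type, a difference of -0.71 ± 0.13 (limma adjusted p = 0.00404). TgSREBP-1a read 10.05 and 9.64 and TgSREBP-2 read 9.85 and 9.68, so all high-protein arrays but 1 lay below the Scap knockout values of 9.99 and 10.06. Ndufaf1, from the values above, fell by 0.67 ± 0.09 (limma adjusted p = 0.00116). With the mean of all probe sets Ndufaf1 passed the test but was not called at 1.5-fold. Ndufs1, the largest core subunit of complex I, read 8.20 and 7.95 against 8.65 and 8.78, a difference of -0.64 ± 0.11 (limma adjusted p = 0.00399). The transgenic pools, at 8.10 to 8.43, lay below both chow pools as well.

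Ndufv3, an accessory subunit of the NADH-binding module, read 7.93 and 7.72 against 8.44 and 8.54, a difference of -0.67 ± 0.13. Ndufb3, in the membrane arm, read 7.82 and 7.81 against 8.33 and 8.53, a difference of -0.61 ± 0.11. Ndufab1, the mitochondrial acyl carrier protein that is also a complex I subunit, read 8.88 and 8.46 against 9.24 and 9.29, a difference of -0.59 ± 0.18 (limma adjusted p = 0.0401). Its duplicates were the farthest apart of these 7 genes. Cox7a2l read 8.19 and 7.88 against 8.64 and 8.66, a difference of -0.62 ± 0.14. In none of the 7 genes did the wild type pools overlap, which adds no support, since the genes were picked on these same arrays.

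By complex, the genes that passed as lower were 19 of 31 in complex I, 4 of 6 in complex II, 4 of 7 in complex III, 6 of 20 in complex IV and 3 of 14 in the ATP synthase. Medians were -0.36, -0.41, -0.45, 0.00 and -0.22 in that order. Over all genes 14.4% passed as lower. Among other genes with a mean log2 signal of 9 to 11 the share was 32.2%. All 4 core subunits of complex I lay below 0 and 3 passed, and 5 of 9 assembly factors fell, among them Cox17 (-0.55) and Cox18 (-0.38), an insertase for complex IV. In complex II all 6 genes lay below 0: Sdhb (-0.37), Sdhc (-0.52), Sdhd and the assembly factor Sdhaf1 (-0.27) passed, and Sdha, at 7.26 and 7.11 against 7.53 and 7.72, had a difference of -0.44 and did not pass. In complex III the widest fall was that of Uqcrc1, with 9.76 and 9.59 against 10.18 and 10.19, a difference of -0.51 ± 0.10 (limma adjusted p = 0.00518). In the ATP synthase Atp5c1, the central stalk subunit gamma, fell by 0.43, and Atp5l by 0.37, while the subunit c genes Atp5g1 (0.25, limma adjusted p = 0.0512) and Atp5g2 (0.04) did not pass.

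Complex IV was split, with 10 of its 20 genes below 0 and 10 above. Those above 0 included the muscle forms Cox6a2, Cox7a1 and Cox8b and the testis form Cox6b2. Also above 0 were Cox5a and Cox8a, which are dim, with mean log2 signals of 4.76 and 4.99. Among brighter genes, Cox5b read 9.44 and 9.49 against 9.86 and 9.99, and Cox7b 8.86 and 8.93 against 9.34 and 9.38. Both passed as lower, while Cox6c and Cox7a2, brighter still, lay near 0. Cox6a1 read 10.92 and 10.88 against 11.33 and 11.34, and fell by 0.43 ± 0.08 (limma adjusted p = 0.00348). Its partner isoform Cox6a2 read 7.01 and 7.06 against 6.84 and 6.72, and rose by 0.25 ± 0.08 (limma adjusted p = 0.04). Cox6b1 was the other gene to rise, by 0.28, with 7.23 and 7.14 against 6.89 and 6.91. Cox8b, a form of heart and skeletal muscle, differed by 0.45 with an adjusted p that rounds to 0.05 without passing, and Cox7a1, another muscle form, read 4.91 and 4.38 against 4.36 and 4.46. Cox4i1 (0.33), Cox7a2 (-0.03) and Cox8a (0.16) did not pass. Of the 14 striated muscle markers 7 were higher and none lower in the high-protein pool, and their part in the Cox6a2 and Cox8b values was not tested.

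For Cox6b2, a testis form of subunit VIb, the probe set with the highest mean read 7.33 and 8.17 in high-protein and 7.18 and 7.20 in chow wild type. The same step between duplicates occurred in TgSREBP-1a (7.13 and 7.97) and TgSREBP-2 (7.08 and 7.89). The gene's other 2 probe sets went the opposite way: one read 6.23 and 6.04 against 6.91 and 6.98, and the other 4.35 and 4.08 against 5.15 and 5.29. No direction is given for this gene. Of the 21 chain genes with more than 1 probe set, 6 had a probe set of the opposite sign to the one used in this comparison: Cox6b2, Atp5l, Ndufb7, Atp5d, Ndufb2 and Cox6c. Atp5l (-0.37) and Ndufb7 (-0.29) passed on the probe set used, and their second probe sets, at 0.03 and 0.16, did not. Atp5d (-0.16, against 0.20 and 0.10), Ndufb2 (-0.31, against 0.44 and 0.25) and Cox6c (near 0, against 0.34 and 0.27) passed on none of these, while a further Ndufb2 probe set passed at -0.35. In the other comparisons more of the 21 genes had opposite signs. They were 9 in TgSREBP-1a, 9 in TgSREBP-2, 12 in Scap knockout and 8 between the transgenic pools, and no value of these pairs passed the test.

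The number of genes that passed depended on single arrays, in the family and over all genes. Without the second chow array 8 genes passed, all lower, beside 6.96% of all genes in either direction. Without the first chow array 19 passed, all lower, beside 9.82%. Without the second high-protein array 21 passed, 18 lower and 3 higher, beside 15.8%, and without the first 34 passed, 32 lower and 2 higher, beside 16.0%. At 1.5-fold the counts in the same order were 3, 7, 4 and 14, lower in every case but 1 of the 14, beside 4.13%, 5.51%, 5.65% and 7.19% of all genes. Of the 38 genes that passed, 7 did so without each array in turn: Cox6a1, Ndufa8, Ndufaf1, Ndufb10, Sdhd, Uqcr11 and Uqcrc1. The median stayed between -0.28 and -0.36.

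Differences between these pools varied with the signal of a gene, also outside the family. The median of the other genes was -0.02 at a mean log2 signal of 7 to 8, -0.07 at 8 to 9, -0.15 at 9 to 10, -0.17 at 10 to 11, and -0.02 for the 109 genes above that. The chain genes had medians of -0.36, -0.40, -0.37, -0.30 and -0.35 in these ranges, the last from 4 genes. Dimmer chain genes had no lower median. The 11 with a mean log2 signal of 2 to 6 had a median of 0.04, beside 0.05 for the other genes. The 4 at 6 to 7 had a median of 0.18, beside 0.02. The upper quartile of all genes was 7.83 and 7.79 on the high-protein wild type arrays and 7.89 and 7.90 on the chow wild type arrays. Among genes with a mean log2 signal of 9 to 11, the 35 chain genes had a median of -0.36 with 21 lower, and the 602 other genes a median of -0.15 with 32.2% lower. After quantile normalization again, the chain genes of this range had a median of -0.20 with 11 lower, and the other genes a median near 0 with 21.9% lower. Over all 78 genes the median then was -0.20, beside 0.02 over all genes. At that setting 30 genes passed, 26 lower and 4 higher, beside 23.0% of all genes (12.6% lower). Of the 30, 27 were among the 38 above, and Ndufaf1 alone kept its call at 1.5-fold (-0.61).

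**Figure D3:**
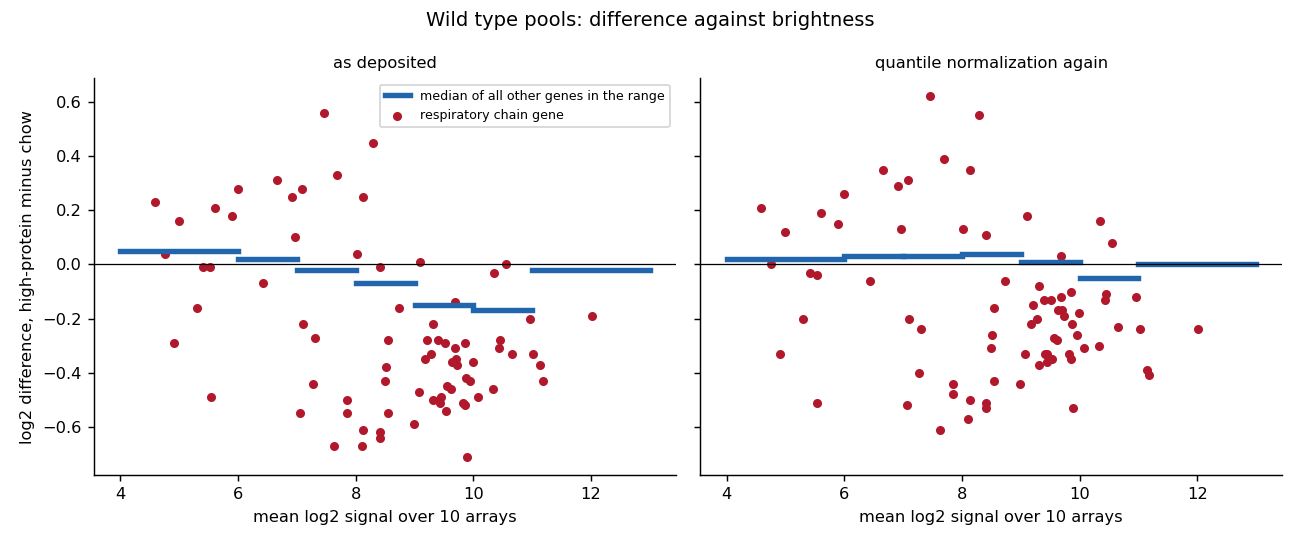
The log2 difference between the wild type pools (high-protein minus chow) is plotted against the mean log2 signal over 10 arrays, for the 78 genes (red points), as deposited on the left and after quantile normalization again on the right. Blue bars are medians of all other genes in each range of signal, the lowest and highest ranges being open-ended. At signals of 9 to 11 the bars lie below 0 on the left and near 0 on the right, and most red points lie below them in both.

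Across the 5 pools, high-protein wild type was lowest for 39 of the 78 genes (50.0%, beside 21.3% of all genes), and chow wild type was highest for 42 (53.8%, beside 18.5%). The median signal of the family was 8.87 and 8.78 on the high-protein wild type arrays, 8.96 and 8.84 in TgSREBP-1a, 8.98 and 8.78 for TgSREBP-2, 9.19 and 9.18 in chow wild type, and 9.05 and 9.21 in Scap knockout. All 6 arrays of the high-protein set thus lay below all 4 of the chow set.

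Several lists of other mitochondrial genes were also lower between the wild type pools, though not all. Of 8 genes for mitochondrial antioxidants and uncoupling 1 fell and none rose, with a median of -0.12 (0.02 after quantile normalization again). Of 61 mitochondrial ribosomal proteins 32 fell and 1 rose, with a median of -0.32 (-0.28 after quantile normalization again). Mrps22, Mrps17 and Mrpl35 fell by 0.92, 0.91 and 0.90. Of 13 electron carriers and partners of the chain 6 fell and 1 rose: Gpd2, the mitochondrial glycerol-3-phosphate dehydrogenase, fell by 0.78, Etfb, of the electron transfer flavoprotein, by 0.75, and Cycs, cytochrome c, by 0.56, while Dhodh, of pyrimidine synthesis, rose by 0.36. Of 18 tricarboxylic acid cycle and pyruvate dehydrogenase genes 6 fell and 3 rose. Pdhb, a pyruvate dehydrogenase subunit, fell by 1.04 ± 0.15 (limma adjusted p = 0.00148), and Pdk4, a kinase that inactivates this enzyme, rose by 2.23 ± 0.18 (limma adjusted p = 3.27e-05).

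The fall was not limited to mitochondrial genes: of 35 cytosolic ribosomal proteins 16 fell and 2 rose, with a median of -0.31 (-0.18 after quantile normalization again). None of 10 biogenesis regulators passed limma's test, 2 had an unadjusted p under 0.05, and their median was 0.08. Of 7 genes for assembly and translation of the chain 4 fell, led by Phb2, a prohibitin (-0.64), and Lrpprc (-0.62). Of the macrophage markers 10 of 10 were lower, with a median of -0.56, and of the 6 pancreas markers 5 were higher and Reg1 lower. The part of either in the chain values was not tested. In the Scap knockout comparison all 6 pancreas markers were lower, with a median of -1.94, beside a chain median of -0.06.

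Duplicate arrays of a pool were compared gene by gene. The second array of each high-protein pool was lower than the first for 29 of the 78 genes in all 3 pools (37.2%, beside 29.4% of all genes), and higher for 9 (11.5%, beside 20.3%). Within single pools it was lower for 48 genes in wild type (61.5%, beside 56.9% of all genes), 44 in TgSREBP-1a (56.4%, beside 53.6%) and 60 in TgSREBP-2 (76.9%, beside 54.0%). The first 2 shares lie near those of all genes. It was lower for 27 in Scap knockout (34.6%, beside 52.0%) and 16 in chow wild type (20.5%, beside 49.7%). The median distance between duplicates of a chain gene was 0.14, 0.14 and 0.17 in the high-protein pools and 0.09 and 0.06 in the chow pools.

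**Figure D4:**
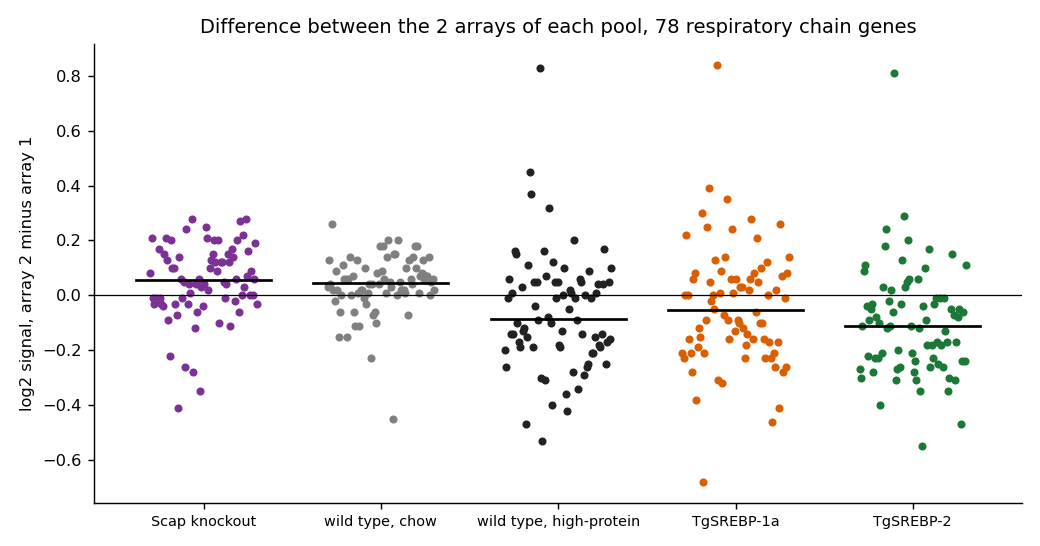
Each point is 1 of the 78 genes, with the log2 signal of the second array minus that of the first in each of the 5 pools, and a black line at the median. The medians lie above 0 in the chow pools and below 0 in the high-protein pools, and the highest point in each high-protein pool is Cox6b2, at 0.83, 0.84 and 0.81.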

How the data were processed

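Liver RNA was measured on Affymetrix MG_U74Av2 arrays. The authors deposited 1 table of log2 signals for 12488 probe sets on 10 arrays. Per the submitters' processing notes these log2 values were made with RMA, while the design text names Microarray Suite 5.0. The version of RMA is not given in the sources used here. The values ran from 2.68 to 14.03 and were used as deposited, and the number of arrays limits the precision. RMA brings the probe intensities of arrays to a common distribution before summing them per probe set, which hides a change shared by most genes, and the distributions of the summed values still differ slightly.

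Gene names came from the platform annotation, with symbols updated through RefSeq, where 10817 of 10833 with 1 symbol matched; those with several (396) or no symbol (1193) and 66 controls were left out, among them 11 that list a chain gene beside another gene. The 78 genes held 106 probe sets, and 21 genes had more than 1. Levels are not compared between genes, since each probe set has its own response.

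A single limma fit (limma 3.58.1, R 4.3.3) held all 10 arrays, with a mean for each of the 5 groups, no block, 5 residual degrees of freedom and 5 contrasts. The fit was tested on simulated data. Replicate numbers are shared across groups. Deviations of same-numbered arrays from their group means correlated over genes at 0.46, 0.61 and 0.60 among the 3 high-protein pools, and the number is treated as pairing those arrays. The chow pools gave 0.30, from 1 pair, and arrays of different sets correlated from -0.48 to -0.12.

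The family, the other gene lists and the tests were chosen with earlier results of these data known. Genes are named if called at 1.5-fold, if they have the largest difference of a complex in a comparison, as isoform pairs, as Sdh subunits, or among the 4 widest of another list. This names 31 chain genes, and others were chosen after their values were seen, to complete a count or a pair. Alternatives were quantile normalization again, a filter on dim genes, other probe sets, only the arrays compared, an intensity trend, the replicate block and leaving out each array.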

Additional observations from a re-analysis of the deposited data

Results flagged for a closer look

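In 4 chain genes the differences of the transgenic pools from high-protein wild type were unequal by limma's test of TgSREBP-1a against TgSREBP-2. The log2 difference, TgSREBP-1a minus TgSREBP-2, was -0.49 for Cox6a2, -0.30 for Atp5o, 0.29 for Ndufa7 and 0.35 for Ndufb8. Cox6a2 lay 0.32 below wild type on the log2 scale in TgSREBP-1a (-0.32) and 0.17 above it in TgSREBP-2 (limma adjusted p = 0.293). For Cox6a2 the call held without each of the 4 arrays, while Ndufb8 lost it without 3 of 4 arrays, and Ndufa7 and Atp5o without any 1 of the 4.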

How the results depend on the processing

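Pools measured on 2 arrays limit every value here. Quantile normalization again gave 1 gene at 1.5-fold and 11 by adjusted p in TgSREBP-1a, beside 7.44% and 18.1% of all genes. It gave 7 by adjusted p between the transgenic pools, beside 11.9%. Between the wild type pools it gave 1 gene at 1.5-fold, beside 5.04%, and a median of -0.20. With only the arrays compared in the fit, the adjusted p counts were 4 in TgSREBP-1a, beside 9.17% of all genes, and 1 between the transgenic pools, beside 5.66%. In TgSREBP-2 the count was 0, beside 2.73% (9 had an unadjusted p under 0.05 with all arrays). The mean of all probe sets gave 1 gene in TgSREBP-2, beside 4.9% of all genes. With the replicate block the adjusted p counts were 20 in TgSREBP-1a, 7 in TgSREBP-2 and 9 between the transgenic pools, beside 28.4%, 13.3% and 19.1% of all genes. They were 2 in Scap knockout (Cox6c and Sdha, both lower, beside 6.01% of all genes) and 59 between the wild type pools (51 lower and 8 higher, beside 39.7% of all genes, 22.3% lower). The pairing rests on the high-protein pools alone, so the last 2 counts use a number that may pair nothing in the chow set, and no other call or direction among the counts and medians changed under the block.

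Leaving out 1 array at a time gave log2 differences of 0.65 to 0.86 for Cox17 and 0.54 to 0.67 for Ndufa6 in TgSREBP-1a. In TgSREBP-2 it gave 0.36 to 0.57 for Cox17 and -0.40 to -0.36 for Ndufaf1. For Cox6a2 between the transgenic pools it gave -0.51 to -0.46. Between the wild type pools it gave 3 to 14 at 1.5-fold and 8 to 34 by adjusted p. The cause of these shifts was not tested. Between the wild type pools, other probe sets had the opposite sign in 6 genes. For Atp5l and Ndufb7 the probe set used passed, and the other, at 0.03 and 0.16, did not. For Cox6b2 the probe set used did not pass, and the others did (-0.82 and -1.0). For Ndufb2 a further probe set passed, of the same sign as the one used.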
